A study of Mus musculus with 7 samples.

Results

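The retinal pigment epithelium (RPE) of 24-month-old WT mice was described from 4 RNA sequencing libraries, which are 4 of the 7 libraries of the series and were chosen by their genotype label. The mice were C57BL6/J per the study's methods and no modified allele or treatment is named for them. F1, F2 and F3 came from females and M1 from the only male, with 1 library per mouse and no pooling, so the sex of M1 and the mouse M1 cannot be told apart. A group number shared by the 4 library names is not explained by the labels. The other 3 libraries of the series, from LC3b-/- mice of the same age, were not used here. Cornea, lens and ciliary body were removed from each eye and the retina was pulled away before the RPE was released with hyaluronidase and trypsin, a procedure in which fragments of neighbouring tissues can stay with the RPE. Poly(A) RNA was sequenced from stranded libraries with 100 base single reads.

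The RPE is a single layer of pigmented cells between the photoreceptors and the choroid. It regenerates the chromophore of the visual pigments through the visual cycle, engulfs and digests shed photoreceptor outer segments, absorbs light with melanin, moves ions, water, glucose and lactate between blood and retina, and secretes proteins to both sides. Each of these tasks depends on a known set of genes, and the level of those sets is what a baseline of normal aged RPE consists of.

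Total estimated counts were 34819720 in F1, 24495952 in F2, 26336538 in F3 and 26719797 in M1, and between 21114 and 22556 genes had at least 1 count in a library. Levels are given as CPM, counts per 1000000 of a library's total after scaling by the trimmed mean of M-values (TMM), whose factors lay between 0.976 and 1.03. Of 52740 gene identifiers, 26438 had a count in at least 1 WT library and 14605 had a mean of at least 1 CPM over the 4, and these 14605 genes, 13590 of them protein coding, are the genes described. Ribosomal RNA genes took 0.733 to 1.03% of counts. No library was a copy of another. The counts of each pair differed by 79.7 to 174 times what sampling noise gives (chi-square per degree of freedom), and the correlation of log2 CPM across genes, which are not independent replicates, ran from 0.882 for F2 and M1 to 0.951 for F2 and F3. The sex labels held in all 4 libraries. Xist, expressed from the inactive X chromosome, stood at 993, 768 and 1094 CPM in F1, F2 and F3 and at 0.767 CPM in M1, and the Y-linked genes Ddx3y, Kdm5d, Eif2s3y and Uty reached 110, 25.3, 24.2 and 21.7 CPM in M1 with at most 9 counts in any female library.

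The genes that mark RPE were abundant in every library. Rpe65, the isomerohydrolase that turns retinyl ester into 11-cis-retinol (GRCm39 chr3:159304802-159330958), stood at 2071, 2128, 2457 and 3960 CPM in F1, F2, F3 and M1, a mean of 2654 ± 887 (SD, n = 4) and rank 30 of all genes by CPM. Rlbp1, which encodes the retinaldehyde-binding protein CRALBP (chr7:79024602-79038176), stood at 2281, 2607, 3595 and 3828 CPM and ranked 28. The retinol carrier transthyretin, Ttr, stood at 11188, 11678, 12590 and 18287 CPM and ranked 6. All of these markers were highest in M1. Ptgds, prostaglandin D2 synthase, stood at 14695, 15312, 21082 and 20639 CPM and ranked 4, highest in F3. Rgr, the RPE-retinal G protein-coupled receptor, followed at rank 9 with a mean of 11454 ± 2888 CPM (SD, n = 4), and Rdh5 and Lrat, the 11-cis-retinol dehydrogenase and the retinyl ester synthase, held ranks 33 and 34. One marker went against this pattern. Best1, which encodes the basolateral chloride channel bestrophin-1 and is often used to mark RPE, had only 57, 27, 23 and 37 estimated counts, or 1.59, 1.12, 0.868 and 1.42 CPM, and ranked 14217 by CPM and 13553 per length.

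Letters of the promoters were read for the visual cycle, melanin and photoreceptor genes and for those of the ocular surface, since MITF and related factors bind the E-box CACGTG or CATGTG and OTX2 and CRX bind TAATCC, each searched on both strands. The windows run from 250 bases before to 50 bases after a start site and come from RefSeq on GRCm38.p6, an older build than the GRCm39 of the gene coordinates. Of all 27025 genes with such a window, 22.7% held an E-box and 8.14% held TAATCC. Of the melanin and melanosome genes, 9 of the 10 with a window held an E-box, as did 4 of 9 visual cycle genes, 4 of 12 rod genes, 0 of 6 cone genes and 1 of 10 ocular surface genes. TAATCC was held by 5 of 12 rod genes, 1 of 6 cone genes, 2 of 10 melanin genes, 2 of 9 visual cycle genes and 2 of 10 ocular surface genes. These are matches of letters and say nothing about binding in these eyes. As examples of both kinds of match, the sequences below show 1 visual cycle gene, 2 pigment genes and 2 rod genes, from chr3:159598931-159599230 (+ strand), chr7:87493463-87493762 (- strand), chr4:80833963-80834262 (+ strand), chr1:87803430-87803729 (+ strand) and chr6:3993758-3994057 (+ strand), with E-box and TAATCC matches on either strand in capitals.
Rpe65: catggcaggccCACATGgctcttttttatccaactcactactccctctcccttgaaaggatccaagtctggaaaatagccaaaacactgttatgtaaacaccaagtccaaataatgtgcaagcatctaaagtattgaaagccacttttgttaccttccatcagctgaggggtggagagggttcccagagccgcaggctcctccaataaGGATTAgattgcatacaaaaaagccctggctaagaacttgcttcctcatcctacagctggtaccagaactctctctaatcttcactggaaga
Tyr: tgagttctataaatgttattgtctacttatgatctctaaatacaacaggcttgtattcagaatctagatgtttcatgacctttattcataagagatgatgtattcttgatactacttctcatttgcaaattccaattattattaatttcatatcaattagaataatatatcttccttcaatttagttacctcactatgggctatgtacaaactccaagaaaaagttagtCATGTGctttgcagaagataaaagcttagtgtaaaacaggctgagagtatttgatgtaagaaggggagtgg
Tyrp1: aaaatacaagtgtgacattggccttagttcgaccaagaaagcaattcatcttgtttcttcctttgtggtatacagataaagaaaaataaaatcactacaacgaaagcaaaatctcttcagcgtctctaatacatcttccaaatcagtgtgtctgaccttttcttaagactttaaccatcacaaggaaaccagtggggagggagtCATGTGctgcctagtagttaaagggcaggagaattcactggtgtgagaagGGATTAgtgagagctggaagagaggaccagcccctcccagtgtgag
Sag: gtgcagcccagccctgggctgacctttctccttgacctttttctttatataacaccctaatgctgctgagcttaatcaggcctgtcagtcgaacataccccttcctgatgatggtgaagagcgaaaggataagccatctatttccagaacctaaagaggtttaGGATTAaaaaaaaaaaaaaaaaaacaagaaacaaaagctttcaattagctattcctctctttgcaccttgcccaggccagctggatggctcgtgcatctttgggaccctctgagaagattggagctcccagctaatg
Gngt1: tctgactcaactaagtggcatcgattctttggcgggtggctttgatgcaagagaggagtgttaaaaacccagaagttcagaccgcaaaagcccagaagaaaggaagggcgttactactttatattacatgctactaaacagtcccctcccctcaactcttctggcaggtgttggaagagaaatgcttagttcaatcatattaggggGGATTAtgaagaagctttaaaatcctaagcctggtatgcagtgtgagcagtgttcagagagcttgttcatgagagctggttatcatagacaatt
The E-box of Tyr begins at position -21 from the start site and that of Tyrp1 at -46, whereas that of Rpe65 begins at -239. Sag and Gngt1 hold GGATTA, the reverse complement of TAATCC, beginning at -87 and -44.

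Across all genes, the most abundant transcripts of the aged RPE were mitochondrial, followed by those of a few nuclear genes for secreted and visual cycle proteins. The 10 most abundant genes took 18.01 ± 0.876% of counts (SD, n = 4), 78 genes had a mean of 1000 CPM or more, 1485 lay at 100 to 1000 CPM, 8053 at 10 to 100 CPM and 4989 at 1 to 10 CPM. The 2 most abundant genes were mt-Co1, a subunit of cytochrome c oxidase, and mt-Cytb, cytochrome b of complex III, at 45179 ± 6638 and 24277 ± 3854 CPM (SD, n = 4), of which mt-Co1 is less certain, since 63.9% of its 31-base words, the stretches of sequence compared between transcripts, also occur in other transcripts, mainly those of Gm13340. Trf, the iron carrier transferrin, was the most abundant nuclear gene by CPM, with 13908, 14641, 20775 and 22525 CPM and rank 3. Apoe, the lipid carrier apolipoprotein E, ranked 14, Timp3, an inhibitor of matrix metalloproteinases that is laid down in Bruch's membrane, ranked 18, Cst3, the protease inhibitor cystatin C, ranked 19 and Clu, the chaperone clusterin, ranked 20. The lysosomal genes Psap and Ctsd followed at ranks 21 and 22. Levels were also divided by exonic length, taken over all annotated exons of a gene, which can exceed the length of the transcript expressed. This length was 7456 bases for Ptgds and 1908 for Ttr, so the order of genes depends on the annotation. On this measure Ttr came ahead of every other nuclear protein-coding gene with 7042 CPM per kb (rank 13). It was followed by Cst3 with 3220 (rank 17), Trf with 3155 (rank 18), Ptgds with 2405 (rank 20) and Rgr with 2393 (rank 21). Rpe65 and Rlbp1 had 1365 and 858 CPM per kb and ranked 32 and 38.

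The 13 mitochondrially encoded mRNAs summed to 151129, 164750, 116785 and 121426 CPM in F1, F2, F3 and M1. mt-Atp6, mt-Co3 and mt-Co2 share nearly all of their sequence with nuclear copies that were also listed among the 30 most abundant genes, Atp6-ps, Gm28437 and Gm28661 in that order, so the split of reads within each of these pairs is uncertain. With the 3 copies added, the sums came to 18.3, 19.8, 14.2 and 14.8% of CPM. F2 was the highest library for 13 of the 13 mitochondrial mRNAs, against 21.5% of all genes described, and F3 was the lowest for 11, against 17.7%. The spread of each gene was small, with an SD of log2 CPM over the 4 libraries of 0.18 to 0.34.

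The visual cycle genes formed the class with the third largest sum, after the mitochondrial mRNAs and the secreted factors. Most members of the class were highest in M1. The 12 genes summed to 32807, 34210, 42926 and 53998 CPM, which was 4.10% of CPM on average. M1 was the highest library for 9 of the 12, against 29.5% of all genes described, and F1 was the lowest for 8, against 30.1%. F3 was the highest library for 3, F2 was the lowest for 3 and M1 was the lowest for 1. Rdh10, which oxidises all-trans-retinol, stood at 1566, 1627, 2167 and 2681 CPM, and Stra6, the receptor through which retinol enters the RPE from blood, at 820, 803, 1133 and 1438 CPM. The differences between libraries were under 2-fold for every gene of the class but Rbp4. None of the 12 had an SD of log2 CPM of 1 or more. As only 7.34% of all genes described reached that SD, this says little of 12 genes. Lrat was among the members highest in F3, with 1970, 1854, 3351 and 2359 CPM. Rbp4, the carrier of retinol in blood, was the one member near the detection limit, at 0.882 to 2.61 CPM. About 65.9% of the 31-base words of Rdh5 transcripts also occur in transcripts of its neighbour Bloc1s1, so the level of Rdh5 (1841, 2033, 2683 and 3088 CPM) is uncertain.

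Pigment genes did not share a single order across the libraries. The 15 genes for melanin synthesis and melanosomes summed to 4024, 2877, 4710 and 3362 CPM, lowest in F2, which was the lowest library for 10 of the 15 against 24.8% of all genes. Dct, which encodes dopachrome tautomerase, had the highest CPM of them, at 1875, 1364, 2346 and 1117 CPM, and lowest in M1. Tyr, the rate-limiting tyrosinase, stood at 172, 136, 218 and 218 CPM and so was not lowest in M1. Pmel, which forms the fibrils on which melanin is laid down, was the only member with an SD of log2 CPM above 1 (1.15), with 266, 85.7, 228 and 49.9 CPM. Tyrp1 (407, 179, 342 and 186 CPM), Mlana (103, 44.8, 80.9 and 46.0 CPM) and Slc45a2 (25.7, 15.4, 17.97 and 11.7 CPM) were, like Pmel, highest in F1 and low in F2 and M1. Genes for melanosome transport took another order. Myrip, which links melanosomes to actin motors, stood at 226, 240, 304 and 376 CPM, and Rab27a, which recruits that motor complex, stood at 224, 207, 260 and 401 CPM. In the plot of visual cycle and melanosome genes M1 is rightmost for most of the upper block, while the libraries change places in the lower block.

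**Figure D1:**
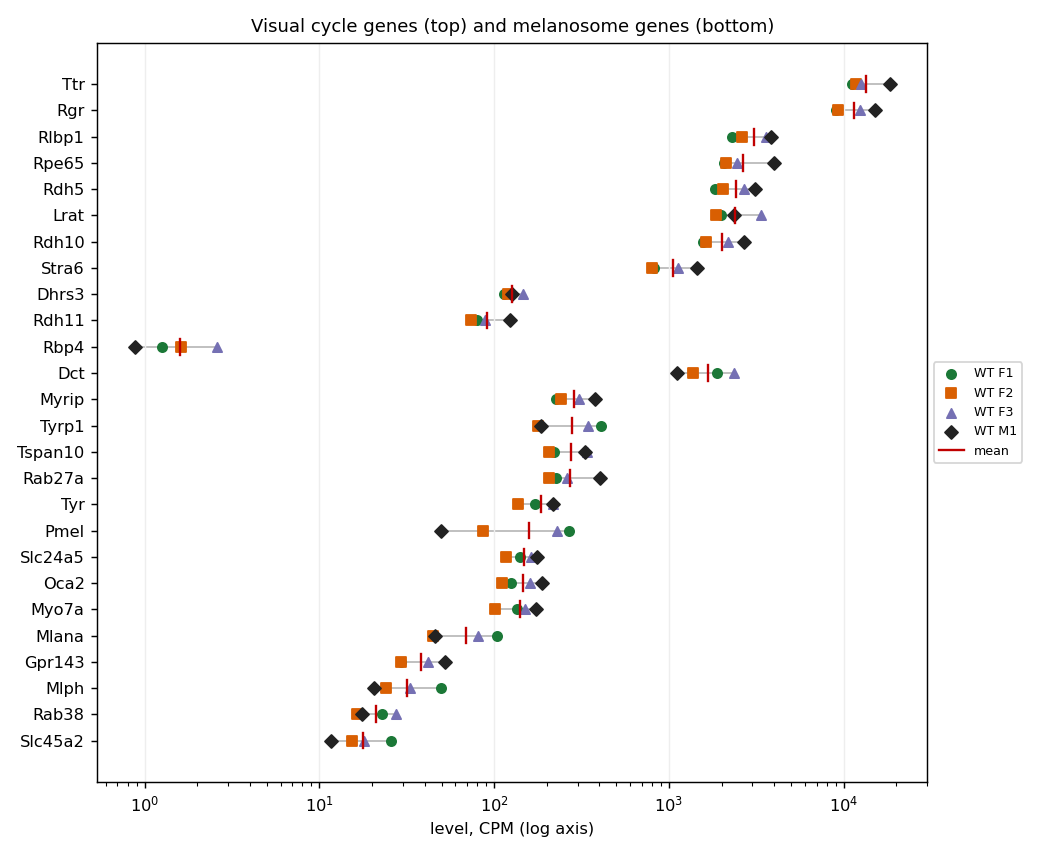
Level of 11 of the 12 visual cycle genes (upper block) and the 15 melanin and melanosome genes (lower block) in each WT library, in CPM on a log axis, with symbols for the libraries, a grey line for their range and a red bar for the mean. M1 is rightmost for most of the visual cycle genes, while Pmel has the widest range of the pigment genes, from 49.9 CPM in M1 to 266 CPM in F1.

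Genes for the uptake of outer segments kept a steady sum while single members moved. The 13 phagocytosis genes summed to 2133, 1919, 2165 and 2272 CPM, and the median of their SDs of log2 CPM was 0.43, above the 0.247 over all genes described. None was variable, that is, had an SD of log2 CPM of at least 1, which with 7.34% of all genes variable says little of 13 genes. The binding integrin genes differed between themselves, with Itgb5 at 172, 161, 176 and 175 CPM and Itgav at 295, 265, 477 and 481 CPM. Mertk, the receptor that triggers engulfment, stood at 89.1, 74.2, 115 and 133 CPM. Of its bridging ligands, Gas6 stood at 346, 326, 347 and 260 CPM and Pros1 at 66.6, 43.4, 22.2 and 24.0 CPM, so that Pros1, with an SD of log2 CPM of 0.75, varied more than any other member. The 18 lysosomal genes summed to 11538, 11579, 14308 and 16505 CPM, and their SDs of log2 CPM lay between 0.09 and 0.40. Ctsd, the main aspartic protease of the lysosome, stood at 3414, 3676, 4941 and 5401 CPM, Psap, the precursor of the saposins that help degrade sphingolipids, at 3824, 3832, 4807 and 6121 CPM, and Ctsb, a cysteine protease, at 1033, 1034, 1114 and 1253 CPM. The autophagy genes, which act in the digestion of outer segments and of the cell's own organelles, had the lowest coefficient of variation of their sum, 5.69% over 1549, 1517, 1657 and 1712 CPM. Among the ATG8 family, whose proteins are conjugated to autophagosomes and phagosomes, Gabarap stood at 213, 224, 226 and 240 CPM, Map1lc3a at 153, 157, 192 and 198 CPM and Map1lc3b at 124, 117, 105 and 110 CPM. Map1lc3b is the gene deleted in the LC3b-/- mice of the series. The SDs of log2 CPM of these 3 genes, 0.07, 0.19 and 0.10, lay below the median of 0.247 over all genes described.

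Transport of ions, water and fuel was carried by a few abundant genes. The 14 genes for channels, pumps and water transport summed to 4518, 4380, 5745 and 6023 CPM. Car14, a membrane carbonic anhydrase, stood at 878, 896, 1241 and 1437 CPM, and the apical potassium channel gene Kcnj13 at 402, 352, 554 and 559 CPM. Unlike these, the water channel gene Aqp1 was highest in F1 and lowest in M1, at 176, 155, 87.5 and 41.0 CPM. Car4, a carbonic anhydrase of choroidal capillaries, was the only variable member, at 1.70, 2.23, 0.302 and 0.307 CPM, and Cftr had a mean below 1 CPM. For lactate and glucose, Slc2a1, the glucose transporter GLUT1, stood at 1385, 1263, 1627 and 1909 CPM, and the basolateral lactate transporter gene Slc16a8 at 1062, 1145, 1449 and 1805 CPM. Bsg, the chaperone that brings lactate transporters to the membrane, ranked 29 with 2602, 2829, 3239 and 3617 CPM. M1 was the highest library for each of these 3 genes. Slc16a3, a lactate exporter of glycolytic cells, and Ldha, whose enzyme makes lactate, were instead highest in F2, at 20.3 and 347 CPM against 3.15 to 10.2 and 154 to 185 CPM in the others.

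The 15 secreted factors summed to 38622, 38126, 49909 and 51071 CPM, of which Ptgds was the largest part. Enpp2, the lysophospholipase D autotaxin, was highest in F3, with 3141, 2498, 5017 and 2768 CPM. Vegfa, which maintains the choroidal capillaries, stood at 309, 258, 397 and 411 CPM. Serpinf1, which encodes pigment epithelium-derived factor, stood at 75.0, 53.7, 17.9 and 27.4 CPM and had the largest SD of log2 CPM of the class, 0.93, with its order across libraries close to that of collagen genes such as Col1a2 (287, 208, 75.9 and 102 CPM). Of the transcription factors, Otx2, which drives RPE and photoreceptor genes, stood at 343, 379, 485 and 551 CPM, Sox9 at 126, 117, 162 and 205 CPM and Mitf, the regulator of pigment genes, at 54.4, 44.4, 70.9 and 79.2 CPM. Otx2, Sox9 and Mitf were highest in M1, but of the 12 transcription factor genes at a mean of 1 CPM or more M1 was the highest library for only 4 and the lowest for 6, against 29.5 and 27.4% of all genes described. Crx, a photoreceptor factor placed in the same list, stood at 25.0, 205, 102 and 0.153 CPM. Tfec, an MITF relative, had a mean of only 0.170 CPM.

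Metabolic and protective genes were often highest in M1. None of the 14 genes for fatty acid oxidation and ketogenesis was variable, which with 7.34% of all genes variable says little of 14 genes. Their median SD of log2 CPM was 0.21. M1 was the highest library for 12 of them, against 29.5% of all genes described. Cpt1a, which brings fatty acids into mitochondria, stood at 178, 185, 213 and 219 CPM. M1 was also the highest library for 12 of 17 antioxidant genes, against the same 29.5%, and their sum was 5688, 5961, 6301 and 9170 CPM. Most of the difference between F1 and M1 came from the metallothioneins Mt1 (1065, 1044, 1178 and 1887 CPM) and Mt2 (710, 671, 863 and 1425 CPM) and from Gpx4, a lipid peroxide reductase (1588, 1992, 1795 and 2982 CPM). Gpx4 shares 39.0% of its 31-base words with another gene, so its level is less certain. In the lipid list, Lrp1, an apolipoprotein receptor, stood at 1107, 872, 1246 and 1235 CPM, Abca4 at 471, 793, 778 and 685 CPM and the cholesterol exporter gene Abca1 at 111, 89.0, 138 and 161 CPM. Iron genes diverged. Trf was highest in M1 and F3, Fth1, the ferritin heavy chain, was highest in F1 (2999, 1914, 1130 and 1470 CPM) and Ftl1, the light chain, hardly moved (1826, 1834, 1994 and 2003 CPM), although Ftl1 shares 53.3% of its 31-base words with other transcripts, mainly those of Ftl1-ps1, and its level is less certain. In the complement list, Clu stood at 4414, 4622, 5812 and 7580 CPM and was highest in M1. C4b (433, 178, 95.04 and 133 CPM) and Vtn, the inhibitor vitronectin (70.6, 352, 165 and 71.3 CPM), took other orders, C4b with its highest level in F1 and Vtn in F2. The level of C4b is less certain, since 42.0% of its words occur in other transcripts, mainly those of C4a. Among junction and cytoskeleton genes, Ezr, which builds apical microvilli, stood at 997, 939, 1149 and 1602 CPM and Ctnnb1, beta-catenin, at 623, 558, 609 and 620 CPM, while Cdh1, E-cadherin, stood at 13.4, 8.93, 0.151 and 23.1 CPM with an SD of log2 CPM of 3.05.

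**Figure D2:**
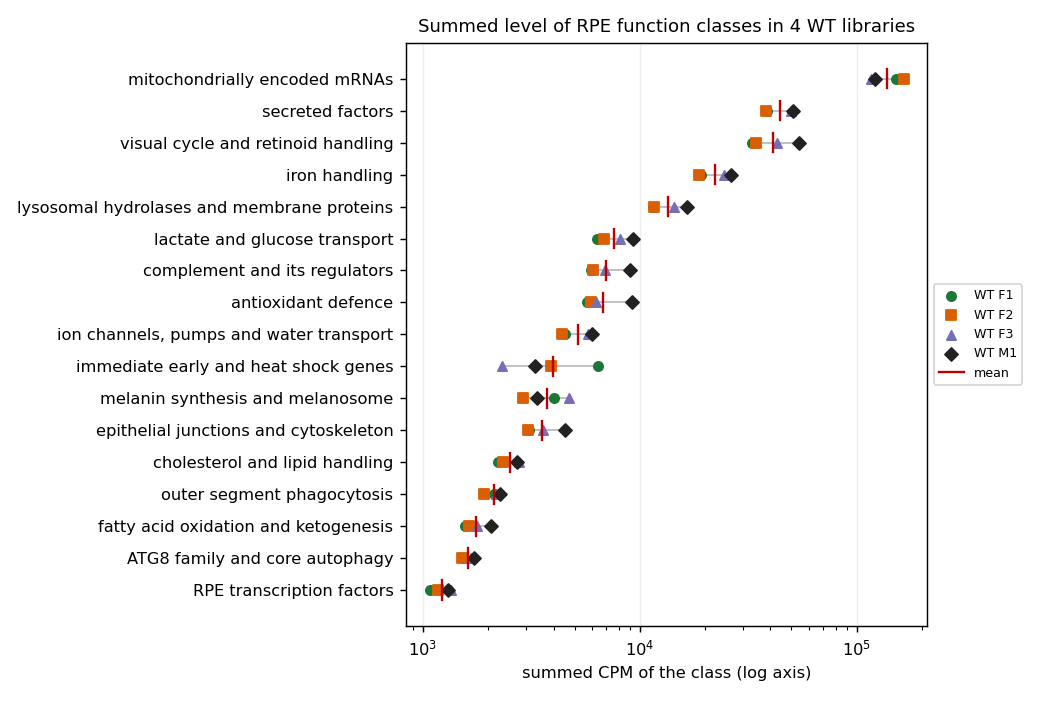
Summed level of each RPE function class in each WT library, in CPM on a log axis, ordered by the mean, with symbols for the libraries and a red bar for the mean. Most classes span less than 2-fold, as the visual cycle does from 32807 CPM in F1 to 53998 CPM in M1, while the immediate early and heat shock genes run from 2320 CPM in F3 to 6389 CPM in F1.

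Between libraries, most genes differed by more than counting alone gives but by little in size. By a chi-square test of the 4 counts against their expectation, with Benjamini-Hochberg adjustment over all 14605 genes, 13044 genes or 89.3% differed at an adjusted p under 0.05. This test compares libraries and not conditions. The median SD of log2 CPM was 0.247, with quartiles of 0.159 and 0.461, against a median of 0.0622 that counting error would give. The common biological coefficient of variation was 0.371. An SD of at least 1 was reached by 1072 genes, which is 7.34% of those described and is called variable here. Of the variable genes, 418 were highest in F1, 488 in F2, 25 in F3 and 141 in M1, and 599 were lowest in M1 and 396 in F3. The first principal component of log2 CPM took 55.8% of the variance and placed M1 at 84.7 and F2 at -49.7, with F3 at -28.4 and F1 at -6.67. Without F3 it took 76.0%.

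Counts of genes in which 1 library lay at least 2-fold above or below each of the other 3 differed between the libraries. F1 lay above in 258 genes (1.77%) and below in 29 (0.199%), and F2 lay above in 234 (1.60%) and below in 28 (0.192%). F3 lay above in only 8 genes (0.0548%) and below in 339 (2.32%), and M1 lay above in 93 (0.637%) and below in 574 (3.93%). With 1 library left out, which asks for 1 comparison fewer, the counts moved by more than 1.5 times in many cases. F1 then lay above in 324 to 1243 genes and below in 43 to 353, most above without F2 and most below without M1. F2 lay above in 265 to 620 genes, most without F1, and below in 60 to 99, most without F3. F3 lay above in 26 to 258 genes and below in 335 to 937, most above without F2 and most below without M1. M1 lay above in 115 to 162 genes, most without F1, and below in 588 to 1188, most without F3. In each of these settings F3 and M1 had more genes below than above, and F1 and F2 more above than below. This held at 2-fold and not by rank alone. Over all genes described, with no limit on size, F1 was the highest library for 26.5% and the lowest for 30.1%, F2 for 21.5% and 24.8%, F3 for 22.5% and 17.7%, and M1 for 29.5% and 27.4%.

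**Figure D3:**
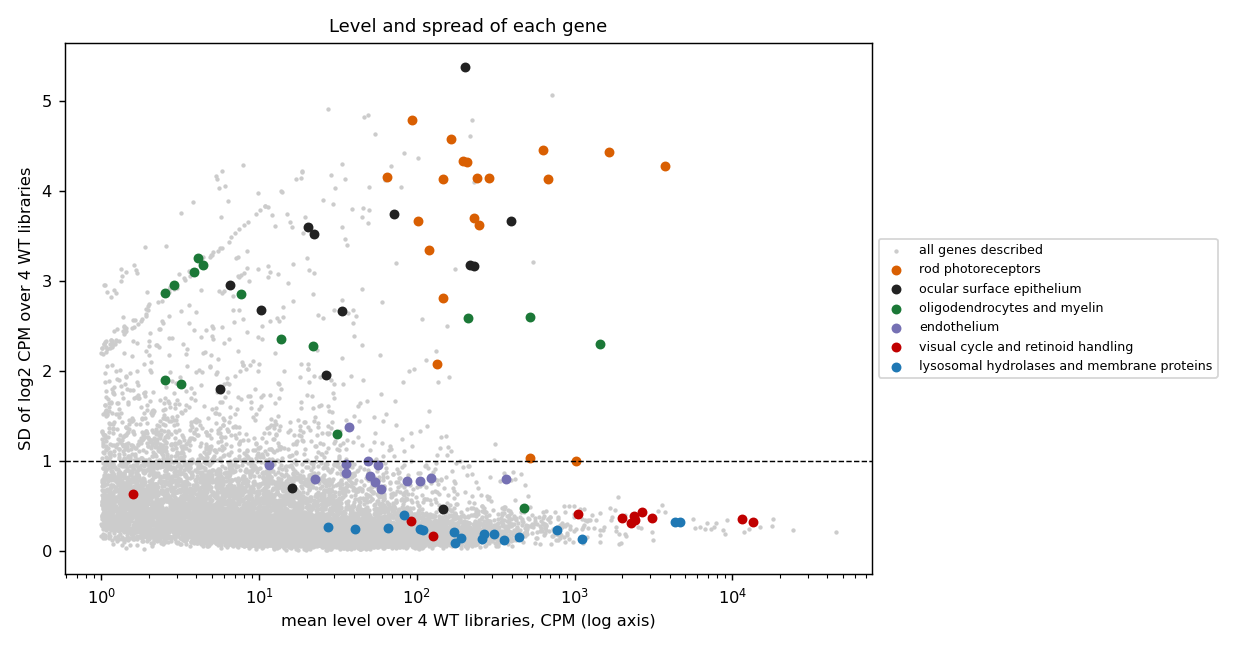
Mean level over the 4 WT libraries in CPM on a log axis against the SD of log2 CPM for each of the 14605 genes described (grey points), with members of 6 lists in colour and a dashed line at an SD of 1. Rod genes reach SDs of 2.07 to 4.79 except Gnb1 and Rom1, which lie near the line, and visual cycle and lysosomal genes do not exceed 0.63.

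Rod photoreceptor transcripts had the widest range between libraries of all the lists. The 20 rod genes summed to 3145, 26697, 11859 and 754 CPM in F1, F2, F3 and M1, a range of 35.4-fold, and the mean of 10614 CPM fell to 5215 CPM without F2. All but Gnb1 were variable, 19 of 20 against 7.34% of all genes, and F2 was the highest library for 20 of the 20. Gnat1, the alpha subunit of transducin, stood at 434, 4307, 1901 and 4.37 CPM. Sag, the arrestin of rods, stood at 195, 1651, 857 and 2.72 CPM, and Gngt1, the transducin gamma subunit, at 37.1, 385, 164 and 0.537 CPM. The 2 phosphodiesterase subunits Pde6a and Pde6b followed the same order, as did the rod transcription factor genes Nrl (46.2, 510, 226 and 0.537 CPM) and Nr2e3 (18.8, 152, 88.0 and 0.192 CPM). Gnb1 and Rom1, at 456 and 250 CPM in M1, were the members with substantial counts in the library that otherwise nearly lacked rod transcripts. Gnb1 is expressed in many cell types, and without it, a choice made after seeing the data, the mean of the list was 9598 CPM.

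The order of these rod genes, with F2 above F3, F3 above F1 and F1 above M1, was found in 1104 genes, 7.56% of those described, and in 367 of the 1072 variable genes, or 34.2%. The genes of largest SD belonged to it almost without exception. Among the 20 protein-coding genes of largest SD at a mean of 10 CPM or more, all but Krt12 and Ddx3y had their highest level in F2 and their lowest in M1. They included Tulp1, a photoreceptor trafficking protein (57.5, 634, 198 and 0.269 CPM), Grk1, a photoreceptor kinase (67.3, 501, 296 and 0.384 CPM), Prph2, which shapes outer segment discs (166, 1621, 746 and 1.57 CPM) and Cnga1, the rod channel (39.1, 463, 152 and 0.269 CPM). Crx, listed above with the RPE factors, was among them. Samd11 and Cplx4 had no count in M1 and were at least 1127-fold and 1013-fold higher in F2, taking 3 counts as the limit in M1. Cone transcripts followed, with sums of 116, 587, 239 and 41.1 CPM, 9 of 10 members variable and F2 highest and M1 lowest for each of the 10. Arr3, cone arrestin, stood at 18.4, 143, 39.2 and 0.153 CPM and the short-wave opsin gene Opn1sw at 29.5, 92.9, 74.0 and 0.345 CPM. In bulk tissue, fewer cells of a type and less RNA per cell cannot be told apart.

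Markers of inner retinal neurons were low in all 4 libraries but for Slc6a9. Of the 13 at a mean of 1 CPM or more, 7 were variable, against 7.34% of all genes described. F2 was the highest library for 8 of the 13, against 21.5%, and M1 the lowest for 8, against 27.4%. Of the 18 genes listed, 5 had a mean below 1 CPM, among them Slc17a6 of ganglion cells at 0.00944 CPM and Pou4f1 at 0.0656 CPM, and Grm6 of bipolar cells stood at 0.668, 4.22, 0.755 and 0 CPM. The sum of the list, 431 to 544 CPM, was mostly Slc6a9, a glycine transporter, whose 343, 334, 461 and 502 CPM were lowest in F2 and highest in M1, as Stra6 was. With the members weighted equally, the order of F1 and M1 in this list turned. Of the glial genes, Glul, glutamine synthetase, stood at 1843, 1892, 2080 and 2038 CPM in an order unlike that of Gfap, the intermediate filament of astrocytes and reactive Müller cells, at 329, 86.9, 10.8 and 28.7 CPM. Slc1a3, Kcnj10 and Gfap were highest in F1.

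Ocular surface epithelium was represented most strongly in M1 and was close to absent in F3. The 17 genes of its list that the table holds summed to 1066, 849, 153 and 3553 CPM, a 23.2-fold range, and the mean of 1405 CPM fell to 703 CPM without M1. Of the 14 members at a mean of 1 CPM or more, 12 were variable, against 7.34% of all genes described. M1 was the highest library for 12, against 29.5%, and F3 the lowest for 11, against 17.7%. Krt5, a keratin of basal cells of stratified epithelia, stood at 331, 230, 3.02 and 1019 CPM, and Krt14, its partner, at 69.8, 78.2, 0.453 and 137 CPM. Krt15 was close in F1 (312 CPM) and M1 (341 CPM) and stood at 214 CPM in F2 and 3.47 CPM in F3. Genes that are typical of cornea differed from these. Krt12, the keratin of corneal epithelium (GRCm39 chr11:99306492-99313086), stood at 0.0835, 26.2, 1.10 and 784 CPM, and Aldh3a1, the abundant corneal crystallin enzyme, at 54.9, 74.2, 3.63 and 785 CPM. In F1, where Krt5 and Krt15 exceeded 300 CPM, Krt12 rested on 3 counts. Krt12 had the largest SD of log2 CPM of any protein-coding gene described at a mean of 10 CPM or more, 5.38. Cdh1, which stratified epithelia also express, was lowest in F3 and highest in M1 as Krt5 was. Dsg1a and Perp were the 2 members that were not variable.

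Myelin transcripts were highest in F1. The list of Schwann and melanocyte lineage genes summed to 4334, 1839, 274 and 858 CPM, with Mbp, myelin basic protein, at 3543, 1611, 89.9 and 536 CPM. A list of oligodendrocyte genes, added after these values were seen, summed to 6150, 2665, 687 and 1512 CPM. Of its 15 members at 1 CPM or more, 14 were variable and the same number were highest in F1. F1 was the highest library for 26.5% of all genes. As the list was chosen with these values known, the count lends no support to a difference. Olig1, at 15.4, 0.289, 0 and 0.806 CPM, reached a mean of 1 CPM only through F1. Mobp stood at 1311, 583, 20.8 and 164 CPM and Mag at 71.9, 4.55, 1.66 and 10.3 CPM, and Mog, Ugt8a, Hapln2, Gjc3 and Olig1 had no count in F3. Within the lists, Sox10 (132, 116, 166 and 195 CPM) and Ermn (351, 344, 551 and 670 CPM) were highest in M1 and lowest in F2, as Stra6 was.

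Vascular and stromal transcripts were present in all 4 libraries at levels that differed by a few fold. The 14 endothelial genes summed to 1645, 1513, 682 and 531 CPM. F1 was the highest library for 11, against 26.5% of all genes described, and M1 the lowest for 12, against 27.4%. Vwf, which encodes von Willebrand factor, stood at 549, 507, 217 and 191 CPM, and Plvap, of fenestrated endothelium such as that of the choriocapillaris, at 137, 157, 77.5 and 49.2 CPM. Only Cldn5, a tight junction gene of endothelium, was variable, at 66.3, 58.1, 15.1 and 9.82 CPM. Fibroblast genes summed to 1679, 1244, 704 and 743 CPM, with Dcn, the proteoglycan decorin, at 493, 344, 146 and 180 CPM, and pericyte and smooth muscle genes to 828, 511, 495 and 317 CPM. Fmod, Ogn and Thbs4 of the fibroblast list spanned less than 2-fold, unlike its collagens.

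Macrophage and microglia genes summed to 787, 790, 615 and 821 CPM, and F3 was the lowest library for 13 of the 16, against 17.7% of all genes described. C1qa, a subunit of the first complement component that these cells make, stood at 63.5, 67.3, 21.3 and 66.2 CPM, and Tmem119, a marker of microglia, at 16.0, 11.8, 2.57 and 14.0 CPM. Csf1r, the receptor of their growth factor, took another order, at 227, 207, 303 and 316 CPM. Haemoglobin genes marked blood in every library, with Hba-a1 at 65.3, 213, 118 and 215 CPM, although Hba-a1 and Hba-a2 share most of their sequence and their separate levels are uncertain. Genes of other cell types were low. The 9 neutrophil genes summed to 2.04 to 6.66 CPM with Ly6g at 0, the 6 mast cell genes to 3.06 to 15.0 CPM, the 11 lymphocyte genes to 6.004 to 45.2 CPM and the 7 adipocyte genes to 0.491 to 1.41 CPM. Igkc, an immunoglobulin light chain gene, stood at 29.3, 18.1, 1.70 and 6.06 CPM and made up most of the lymphocyte sum in all libraries but F3. The 15 skeletal muscle genes summed to 22.0 to 69.7 CPM, with at least 90 counts in each library for Atp2a1, the calcium pump of fast muscle fibres. Of 19 lens genes, 6 crystallin genes, Cryba1, Cryga, Crygb, Crygc, Cryge and Crygf, were at 0 in all 4 libraries, and the sum of 20.5 to 24.1 CPM came mostly from Lim2 and Bfsp2, of which Lim2 shares 93.0% of its sequence words with another gene.

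**Figure D4:**
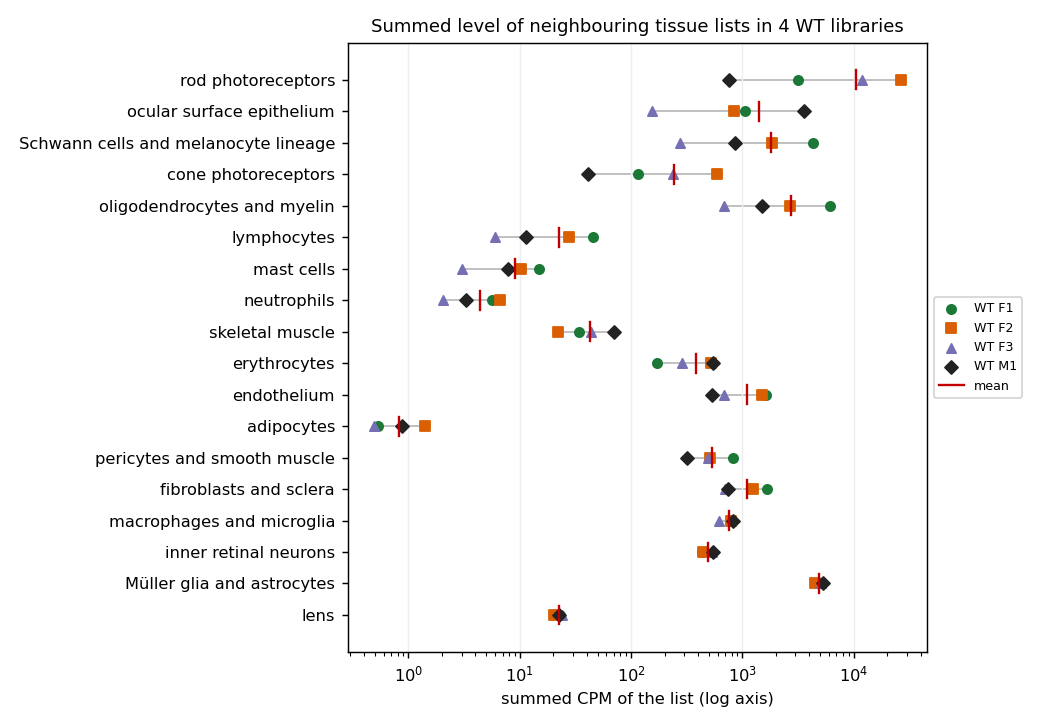
Summed level of each neighbouring tissue list in each WT library, in CPM on a log axis, ordered by the ratio of the highest to the lowest library, with symbols for the libraries and a red bar for the mean. Rod genes span 754 to 26697 CPM with F2 highest, ocular surface genes 153 to 3553 CPM with M1 highest and myelin genes 687 to 6150 CPM with F1 highest, while lens genes stay between 20.5 and 24.1 CPM.

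Genes that respond within minutes to stimulation or stress were highest in F1. The 16 immediate early and heat shock genes summed to 6389, 3896, 2320 and 3276 CPM. F1 was the highest library for 15 of them, against 26.5% of all genes described, and F3 the lowest for 13, against 17.7%. Fos stood at 828, 488, 300.2 and 421 CPM, Zfp36, which destabilises inflammatory mRNAs, at 831, 458, 203 and 335 CPM and Nr4a1, an orphan nuclear receptor, at 339, 199.8, 85.4 and 85.2 CPM. The heat shock genes Hspa1a and Hspa1b varied less, with SDs of log2 CPM of 0.19 and 0.17. F1 was also the library with the largest sums of myelin, endothelial and fibroblast genes (6150, 1645 and 1679 CPM), and the part of these tissues in the level of the immediate early genes was not tested.

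The sum of visual cycle genes ranked the libraries in another order than the sums of rod, cone and ocular surface genes. It ranked them in the reverse order of the endothelial sum, which was 1645, 1513, 682 and 531 CPM in F1, F2, F3 and M1. The pericyte and smooth muscle sum (828, 511, 495 and 317 CPM) had that same reverse order. M1, in which visual cycle genes summed to 53998 CPM, had the lowest sums of rod, cone and endothelial genes but the highest sum of ocular surface genes. F2, with 26697 CPM of rod genes, had 34210 CPM of visual cycle genes, and F1, with 3145 CPM of rod genes, had 32807. The part of these tissues in the differences of RPE genes between libraries was not tested. Of the protein-coding genes at a mean of at least 100 CPM, Tmem50a had the smallest SD of log2 CPM, 0.02, with 103, 104, 102 and 105 CPM. Ube2d2a, a ubiquitin-conjugating enzyme gene, Rabac1, Ptov1, Tnks2, Ehmt2, a histone methyltransferase gene, U2af2, a splicing factor gene, Brd2, Tnrc6a and Top1, a topoisomerase gene, followed with SDs of 0.03 to 0.04, where counting error alone gives 0.019 to 0.027.

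**Figure D5:**
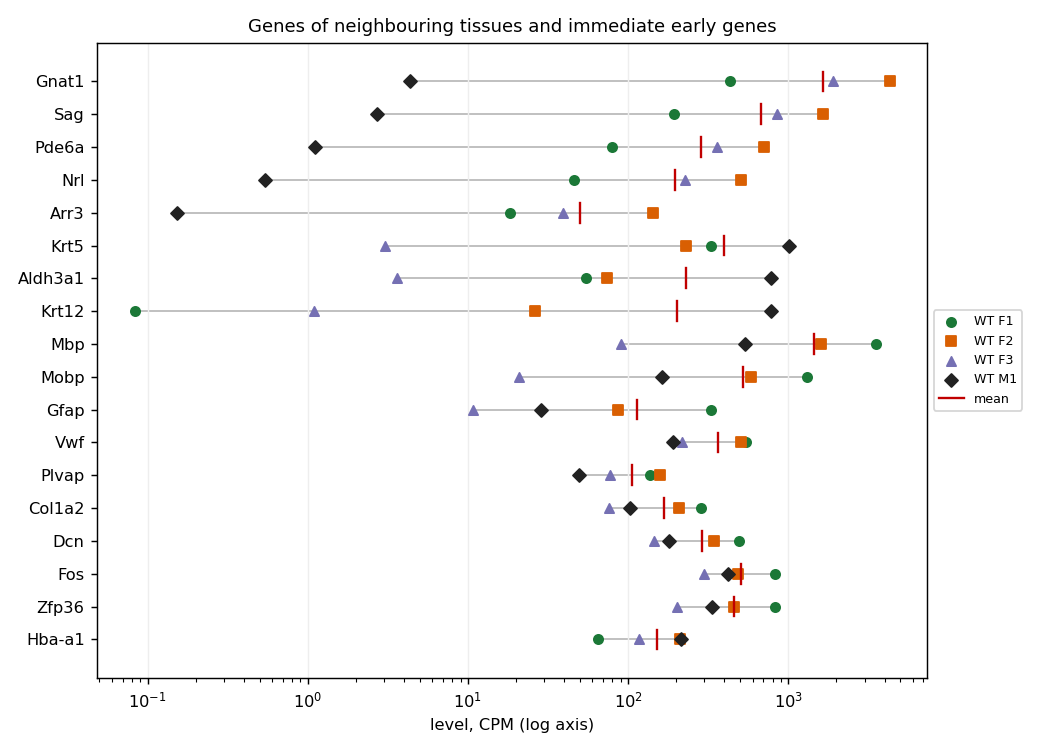
Level of 18 genes of neighbouring tissues and of the immediate early response in each WT library, in CPM on a log axis, with symbols for the libraries and a red bar for the mean. Rod genes are highest in F2 and lowest in M1, Krt12 is highest in M1 (784 CPM) and lowest in F1, and Mbp and Mobp are highest in F1 and lowest in F3.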

How the data were processed

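RPE of 4 WT mice was measured by RNA sequencing. Per the study's methods, the authors estimated transcript abundance with salmon against the GENCODE mouse transcripts of build GRCm39 and summed it to genes with tximeta, and the deposited table holds these estimated counts. They were rounded to whole numbers. CPM and log2 CPM (prior count 2) were computed with edgeR 4.0.16 (TMM scaling) in R 4.3.3, and DESeq2 1.42.0 served the alternatives. Genes with a mean of at least 1 CPM were kept. Each gene's 4 counts were tested against counting error by chi-square at the TMM library sizes. On simulated data the test recovered 99 of 100 genes changed 2-fold and called 13 unchanged ones among 14605. The simulation held counting (Poisson) error alone, as the test assumes, and not the uncertainty of assigning reads to genes. Symbols, positions and exonic lengths came from GENCODE M39, which matched 51721 of 52740 identifiers, and shared 31-base words between transcripts marked uncertain genes. Libraries were mapped by genotype label and column name, and the LC3b-/- columns were left out. With 24495952 to 34819720 counts per library, a count of 3 corresponds to 0.0835 to 0.124 CPM, which covers counting error only. Named were the 4 RPE markers, the 30 genes of highest mean CPM, the 3 highest members and the most variable member of each list, the 20 most variable (mean at least 10 CPM) and 10 least variable (at least 100 CPM) protein-coding genes, list members at 0 and the sex genes. Some genes the rule names are not reported here. Other list members named in the text were chosen after their values were seen. Members and lists were chosen with earlier results of these data known, and the oligodendrocyte list was added after its genes' values were seen. Alternatives covered scaling, filters, prior counts, thresholds and left-out libraries.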

Additional observations from a re-analysis of the deposited data

Results flagged for a closer look

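In 12 of 205 sets of 4 values, a library stood apart from the other 3 by Dixon's test at its 95% level. Chance alone flags about 1 in 20 sets that were chosen without regard to their values. Many genes here were named for their spread over the same 4 values, so that rate is no measure for them and the flags are description only. One was a list, the summed macrophage and microglia genes, low in F3 at 615 CPM, and C1qa of that list was low in F3 at 21.3 CPM. M1 was high for Krt12 (784 CPM) and Aldh3a1 (785 CPM) of the ocular surface, and for Mt1 (1887 CPM) of the RPE function classes. F1 was high for the oligodendrocyte gene Olig1 (15.4 CPM). The Y-linked genes Ddx3y (110 CPM), Kdm5d (25.3 CPM), Eif2s3y (24.2 CPM) and Uty (21.7 CPM) stood apart in M1. As M1 is the only male, these flags were fixed in advance. The adipocyte genes Cidec in M1 (0.460 CPM) and Adipoq in F2 (0.372 CPM) stood apart at levels under 1 CPM.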

How the results depend on the processing

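No paired analysis was possible because only 1 group was described. The count of genes beyond counting error (13044) lay between 9000 and 16960 under other scalings, filters, thresholds and left-out libraries. All 246 recomputed list sums stayed within 1 SD of their reported value, but this says nothing of how firm the sums are. Leaving out 1 library cannot move a mean by as much as 1 SD of the same values. The TMM factors, all near 1, also left other scalings little room to move the sums. The means of lists led by 1 library still moved by more than 1.5 times without it, from 10614 to 5215 CPM for rods and 246 to 132 for cones without F2, from 1405 to 703 for ocular surface without M1, and without F1 from 1826 to 980.1 for Schwann and melanocyte genes, 2753 to 1604 for oligodendrocyte genes and 22.6 to 14.9 for lymphocyte genes. The number of variable genes (1072) depended on the filter, at 662 with edgeR's filterByExpr, 322 at a mean of 10 CPM and 3123 with no filter. Where the SD had to reach only the log2 of 1.5, which is a limit below 1, the number was 2712. On variance-stabilized values it was 340. It was 973 to 1271 with 1 library left out and 999 without the genes of the tissue lists, an alternative added after seeing the data. The coefficient of variation (0.371) was 0.306, 0.299 and 0.438 under the same 3 filters, 0.156 as the median of DESeq2's gene-wise estimates, and 0.331 to 0.396 with 1 library left out. Genes with 1 library apart by 2-fold (1563) numbered 1037, 454 and 6089 under the 3 filters and 1995 to 2710 with 1 library left out (highest without F2), where 1 comparison fewer is required. The first component (55.8%) took 69.3% over the 500 most variable genes, 46.3% with no filter and 55.5 to 76.0% with 1 library left out. Without mitochondrial genes the 10 most abundant genes took 13.0%. When members were weighted equally, as the mean of their log2 CPM in place of the sum, the log2 difference between the libraries with the highest and the lowest sum turned sign for complement (0.59 to -0.068), iron handling (0.49 to -0.24), ion channels and pumps (0.46 to -0.031), inner retinal neurons (0.34 to -0.94) and Müller glia (0.25 to -1.36), whose sums rest on 1 or a few abundant genes. Counts of a few reads limit what can be said of genes near 0.1 CPM.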

Other observations

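Several genes listed as markers of other cell types were each lowest in F2 and highest in M1, as the visual cycle gene Stra6 was, namely Csf1r of macrophages, Ermn of oligodendrocytes, Sox10 of neural crest and oligodendrocytes and Slc6a9 of amacrine cells. Their levels in M1 were 316, 670, 195 and 502 CPM. Of other genes of the same cell types, Mog stood there at 1.96 CPM, Aif1 at 4.53 CPM and Tfap2b at 4.45 CPM, on a scale not divided by length. Which cells carried these transcripts was not tested.

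Growth factor and binding protein genes of the secreted class took different orders. Bmp4 stood at 274, 271, 371 and 340 CPM in F1, F2, F3 and M1 and Bmp7 at 129, 120, 170 and 166 CPM, both highest in F3 and lowest in F2. Igfbp5, an insulin-like growth factor binding protein gene, was lowest in F3 and highest in F1, at 1727, 1094, 844 and 911 CPM.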
